A study of Homo sapiens with 19 samples.

Results

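The 10 genes described here are the main cytosolic and mitochondrial heat shock chaperones: HSPA1A, HSPA1B, HSPA8, HSPH1, DNAJB1, HSP90AA1, HSP90AB1, HSPB1, HSPD1 and HSPE1. They were taken as the rows whose Ensembl identifier carries 1 of these symbols, and each of the 10 had a row among the 60612 genes of the HCT116 table, the 63086 of the WiDr table and the 82890 of the WiDr long-read table. HCT116 and WiDr are human colorectal cancer lines. HCT116 cells received 10 µM GSK025 (GSK3235025, an inhibitor of the arginine methyltransferase PRMT5), 5 µM GSK715 (GSK3368715, labelled an inhibitor of PRMT1) or DMSO, the vehicle, for 96 h, with 3 short-read libraries each. WiDr cells received 5 µM GSK715 or DMSO for 96 h, with 3 short-read libraries each and 2 libraries each of Oxford Nanopore (ONT) full-length cDNA. The labels give no genetic change, and each of the 19 libraries came from 1 of the 2 lines. Nothing in the labels says that replicate libraries came from separate cultures, and the spread behind each p-value may therefore be technical.

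Heat shock chaperones bind unfolded or newly made proteins and help them fold, move or be degraded. HSP70 proteins work in cycles of ATP hydrolysis that J-domain proteins start and nucleotide exchange factors end, and HSP90 acts later on clients such as kinases and steroid receptors. Small heat shock proteins hold unfolded proteins without ATP, while HSPD1 and HSPE1 form the folding chamber of the mitochondrial matrix. The transcription factor HSF1 drives many of these genes when it binds heat shock elements, which are inverted repeats of the letters GAA and TTC, and colorectal cancer lines express the constitutive members at high levels.

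The promoters are shown because HSF1 binds heat shock elements. Whether their letters have a part in the transcript changes was not tested. RefSeq windows (GRCh38.p14) of 300 bases around the annotated starts gave 16 windows for the 10 genes. The heat shock element pairs GAANNTTC and TTCNNGAA, which read the same on both strands, are in capitals, also where 2 of them overlap as an element of 3 units (GAANNTTCNNGAA or TTCNNGAANNTTC). The lines below give HSPA8 (chr11:123062087-123062386, minus strand), HSPA1A (chr6:31815293-31815592, plus strand), DNAJB1 (chr19:14518348-14518647, minus strand), HSP90AA1 (chr14:102086995-102087294, minus strand), HSP90AB1 (chr6:44247693-44247992, plus strand), HSPB1 (chr7:76302423-76302722, plus strand) and HSPD1 (chr2:197499791-197500090, minus strand), each read 5′ to 3′ on the strand of its gene.
HSPA8: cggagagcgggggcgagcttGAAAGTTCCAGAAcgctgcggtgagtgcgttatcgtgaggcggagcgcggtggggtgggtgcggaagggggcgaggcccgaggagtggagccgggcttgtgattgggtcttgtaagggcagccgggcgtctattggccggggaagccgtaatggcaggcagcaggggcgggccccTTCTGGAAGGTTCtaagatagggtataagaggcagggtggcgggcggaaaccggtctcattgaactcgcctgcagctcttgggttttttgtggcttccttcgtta
HSPA1A: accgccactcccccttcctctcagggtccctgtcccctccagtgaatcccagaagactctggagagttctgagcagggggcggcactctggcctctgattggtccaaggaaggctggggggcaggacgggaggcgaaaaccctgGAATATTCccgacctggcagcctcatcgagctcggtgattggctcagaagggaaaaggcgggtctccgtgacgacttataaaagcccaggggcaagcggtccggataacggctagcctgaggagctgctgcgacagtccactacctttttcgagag
DNAJB1: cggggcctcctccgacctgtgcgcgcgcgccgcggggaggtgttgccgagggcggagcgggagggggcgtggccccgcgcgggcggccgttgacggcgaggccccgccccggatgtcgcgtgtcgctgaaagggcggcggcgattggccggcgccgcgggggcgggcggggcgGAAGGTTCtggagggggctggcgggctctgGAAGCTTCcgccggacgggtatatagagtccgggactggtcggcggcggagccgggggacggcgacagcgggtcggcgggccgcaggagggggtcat
HSP90AA1: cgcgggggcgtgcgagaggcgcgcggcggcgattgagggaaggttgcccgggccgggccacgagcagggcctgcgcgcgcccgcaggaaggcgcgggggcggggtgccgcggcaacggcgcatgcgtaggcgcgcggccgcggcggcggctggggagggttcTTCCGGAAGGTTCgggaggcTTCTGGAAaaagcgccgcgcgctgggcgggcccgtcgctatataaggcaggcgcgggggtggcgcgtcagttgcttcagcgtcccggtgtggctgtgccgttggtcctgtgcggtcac
HSP90AB1: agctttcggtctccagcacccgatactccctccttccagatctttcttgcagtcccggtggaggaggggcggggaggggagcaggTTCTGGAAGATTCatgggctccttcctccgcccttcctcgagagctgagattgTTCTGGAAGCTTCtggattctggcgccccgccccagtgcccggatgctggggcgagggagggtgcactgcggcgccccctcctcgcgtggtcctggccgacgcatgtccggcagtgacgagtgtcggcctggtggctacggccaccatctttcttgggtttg
HSPB1: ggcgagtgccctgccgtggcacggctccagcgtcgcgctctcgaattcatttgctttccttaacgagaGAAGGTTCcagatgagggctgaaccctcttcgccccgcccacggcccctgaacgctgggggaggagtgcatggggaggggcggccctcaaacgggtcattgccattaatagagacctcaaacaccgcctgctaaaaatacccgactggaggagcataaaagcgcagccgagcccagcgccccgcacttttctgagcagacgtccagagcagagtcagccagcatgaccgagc
HSPD1: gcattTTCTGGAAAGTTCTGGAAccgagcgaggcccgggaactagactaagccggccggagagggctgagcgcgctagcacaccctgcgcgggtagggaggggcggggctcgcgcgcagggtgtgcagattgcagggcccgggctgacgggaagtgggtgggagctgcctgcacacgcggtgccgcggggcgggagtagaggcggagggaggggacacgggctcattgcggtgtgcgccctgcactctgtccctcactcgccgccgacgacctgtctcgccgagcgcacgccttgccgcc

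A pair was found in 9 of the 16 windows and in some window of 8 of the 10 genes. Over all 35114 RefSeq promoter windows of the same length, 6.77% held GAANNTTC and 7.74% held TTCNNGAA. An element of 3 units was found in 1 window each of HSPA8, HSP90AA1, HSP90AB1 and HSPD1, against 0.49% of all windows. In HSPA8 these elements began 230 and 55 bases before the start, in HSP90AB1 165 and 112 bases, in HSP90AA1 88 bases and in HSPD1 245 and 240 bases. DNAJB1 had separate pairs 77 and 47 bases before the printed start, and HSPB1 had 1 pair 182 bases before its start. HSPA1A and HSPA1B had 1 pair each, 106 and 105 bases before the start, and their windows were identical at 277 of 299 bases (92.6%) with an offset of 1 base. Their TATA letters (TATAAA or TTTATA, found in 11.5% of all windows) began 30 and 29 bases before the start. CCAAT or its reverse ATTGG, found in 34.6% of all windows, was in a window of HSPA1A, HSPA1B, HSPA8, DNAJB1 and HSP90AA1. No window of HSPH1 or HSPE1 held a heat shock element pair. The HSPE1 window (chr2:197500129-197500428, plus strand) lies close to the printed HSPD1 window, whose elements sit at the end toward it. Elements outside a window were not counted for its gene, so a nearby element of HSPE1 would be missed. A match of letters is a description of the window and not evidence of binding.

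**Figure D1:**
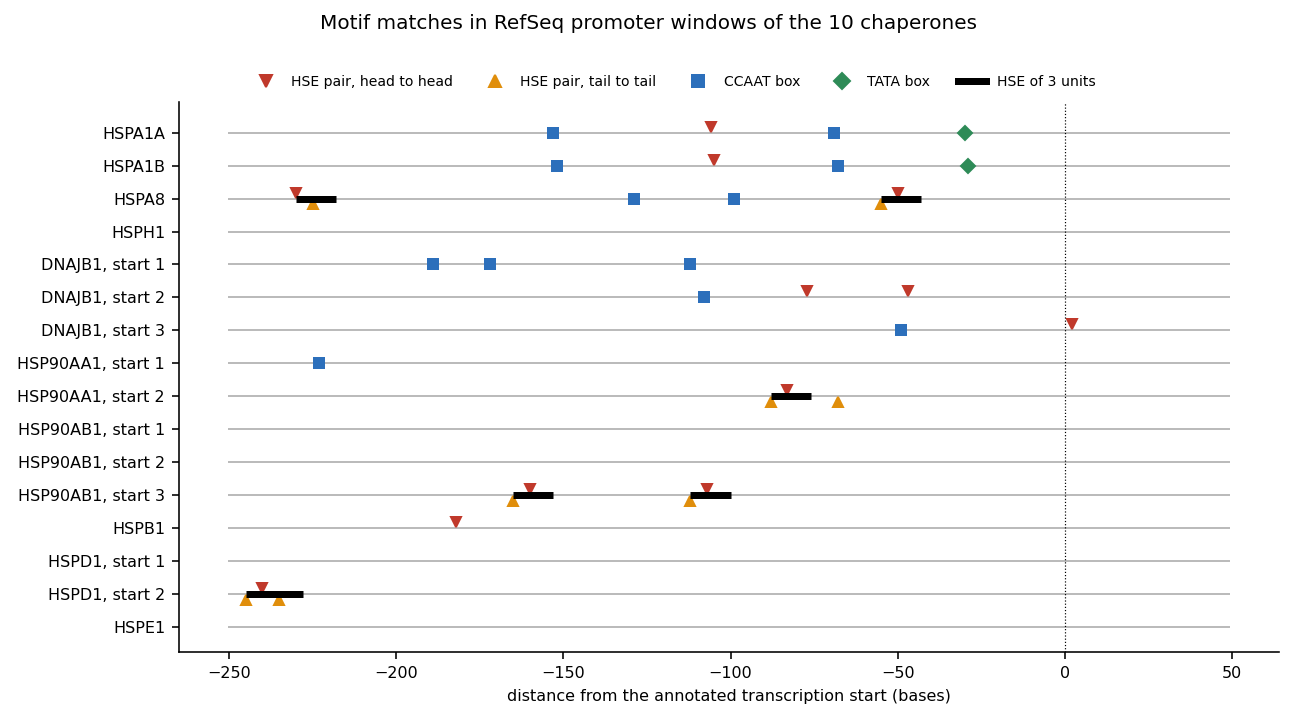
Motif matches along the 16 RefSeq promoter windows of the 10 chaperone genes, with the distance in bases from the annotated start on the x axis and 1 row for each window. Triangles mark heat shock element pairs, black bars elements of 3 units, squares CCAAT letters and diamonds TATA letters, and the windows of HSPH1 and HSPE1 hold none of them.

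Short-read libraries held 59612948 to 82390261 gene counts and ONT libraries 1449698 to 1667813. Levels are given as CPM, the count scaled to the library total, adjusted by TMM, a factor that aligns the bulk of genes between libraries. The 10 genes together took 0.783% to 0.809% of all counts in HCT116 with GSK025, 0.726% to 0.746% with GSK715 and 0.771% to 0.778% with DMSO. In WiDr short reads they took 0.559% to 0.569% with GSK715 and 0.397% to 0.400% with DMSO. The ONT libraries of WiDr did not show this rise, at 0.189% to 0.194% with GSK715 and 0.195% to 0.201% with DMSO. Of 10 colorectal epithelial markers, 6 to 9 averaged at least 1 CPM in each group. Of 14 stromal, endothelial and immune markers, the summed level was 75.9 to 85.9 CPM with GSK025, 107 to 117 CPM with GSK715 and 64.9 to 67.6 CPM with DMSO in HCT116. In WiDr it was 3030 to 3160 CPM with GSK715 and 1210 to 1250 CPM with DMSO, nearly all from LYZ, and COL1A2, COL3A1 and DCN were at 0 in both WiDr groups. The part of these markers in the changes below was not tested. In such bulk libraries fewer expressing cells and less RNA per cell cannot be told apart.

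Divided by each gene's exonic length, HSP90AB1, the constitutive cytosolic HSP90, had the highest level of the 10 in every short-read group. In HCT116 it averaged 1440 CPM per kb with GSK025, 1360 CPM per kb with GSK715 and 1121 CPM per kb with DMSO. Second place changed with treatment in HCT116: HSPD1 with GSK025 (221 CPM per kb), HSPB1 with GSK715 (218 CPM per kb, overlapping HSPD1 at 203 CPM per kb) and HSP90AA1 with DMSO (318 CPM per kb). In WiDr, HSPA8 was second with GSK715 (334 CPM per kb) and came after HSP90AB1, HSPD1 and HSP90AA1 with DMSO (87.4 CPM per kb). HSPH1 was lowest per kb in every short-read group, at 3.95 CPM per kb with GSK025, 3.03 CPM per kb with GSK715 and 4.43 CPM per kb with DMSO in HCT116, and at 14.1 CPM per kb with GSK715 and 15.8 CPM per kb with DMSO in WiDr. The length used counts all annotated exonic bases of a gene, 8390 for HSPH1. Not divided by length, HSPH1 was also lowest in HCT116. In WiDr with DMSO it then averaged 132.5 CPM, above HSPE1 (49.7 CPM) and HSPB1 (59.2 CPM), so its rank there depends on the length used. Neighbours in the order did not overlap in HCT116 with DMSO. In WiDr with DMSO only HSPB1 (36.2 CPM per kb) and DNAJB1 (35.4 CPM per kb) overlapped.

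**Figure D2:**
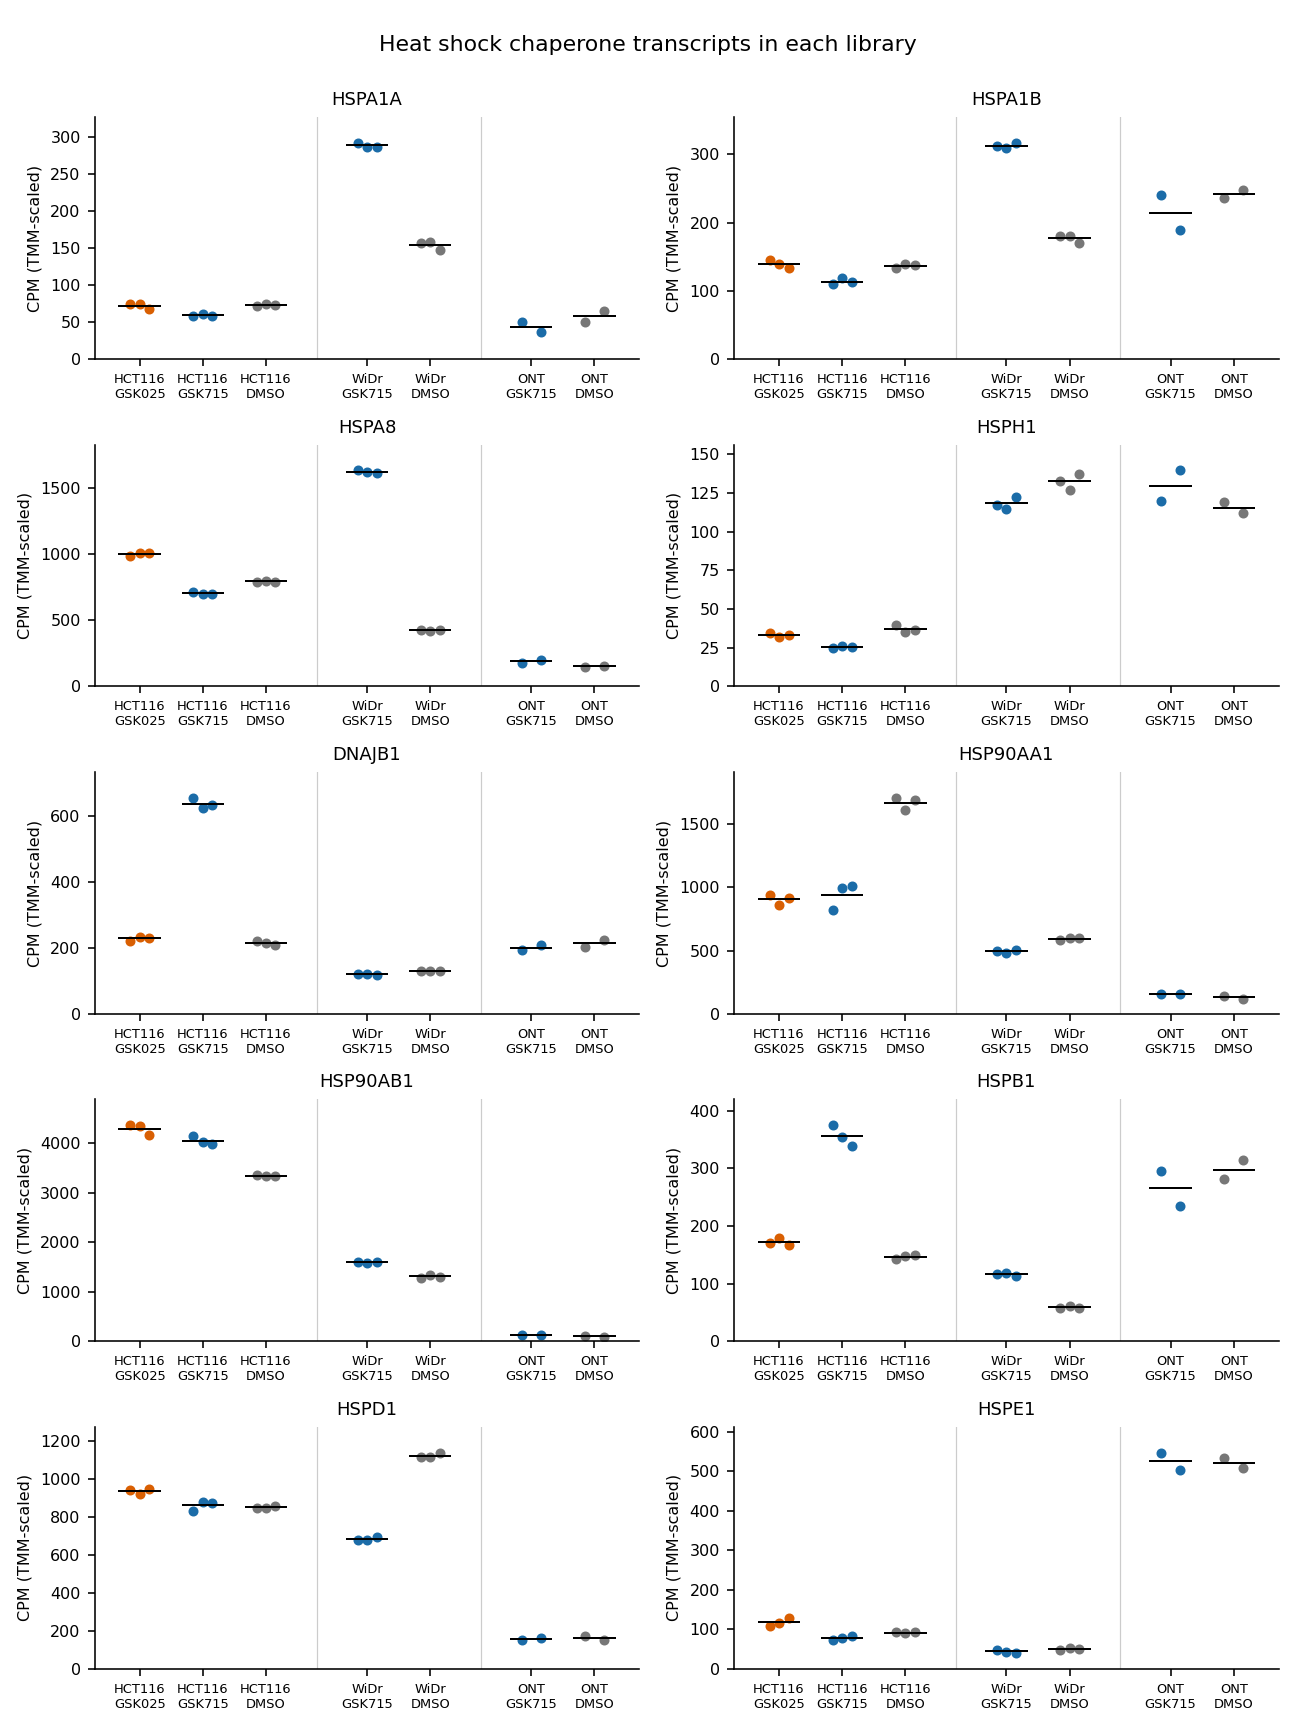
Level of each chaperone transcript in each of the 19 libraries, in TMM-scaled CPM on axes that start at 0, with points for libraries and lines for group means. HSPA8 in WiDr stands at 1613 to 1631 CPM with GSK715 and 421 to 427 CPM with DMSO, and DNAJB1 in HCT116 at 623 to 653 CPM with GSK715 and 207 to 220.4 CPM with DMSO.

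Each inhibitor was set against DMSO with edgeR's quasi-likelihood test over all genes tested, and a gene was called at a Benjamini-Hochberg adjusted p under 0.05. All 10 chaperones passed the filter on low counts in every table. With GSK025 in HCT116, 5 of the 10 rose, 1 fell and 4 were not called, where 22% of the 19751 genes tested were higher and 22.1% lower, 44.1% in all. With GSK715 in HCT116, 3 rose, 6 fell and 1 was not called, where 22.1% of genes were higher and 24.2% lower, 46.4% in all. With GSK715 in WiDr short reads, 5 rose and 5 fell, where 33.6% of 19340 genes were higher and 32.2% lower, 65.8% in all. With library totals in place of TMM, 2 members rather than 5 were lower in WiDr (HSPH1, HSPE1 and DNAJB1 were not called) and 2 rather than 1 were lower with GSK025. In the ONT libraries none of the 10 was called with edgeR or DESeq2, 4 had an unadjusted p under 0.05, as had 21.5% of all genes tested, and of 15877 genes 4.29% were called higher and 4.51% lower, 8.8% in all. The members' median log2 change was 0.12 with GSK025 in HCT116, -0.20 with GSK715 in HCT116 and 0.08 with GSK715 in WiDr, against -0.02, -0.05 and 0.05 over all genes tested. The 2 HCT116 comparisons share their DMSO libraries, so their values are given side by side and not compared as independent.

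**Figure D3:**
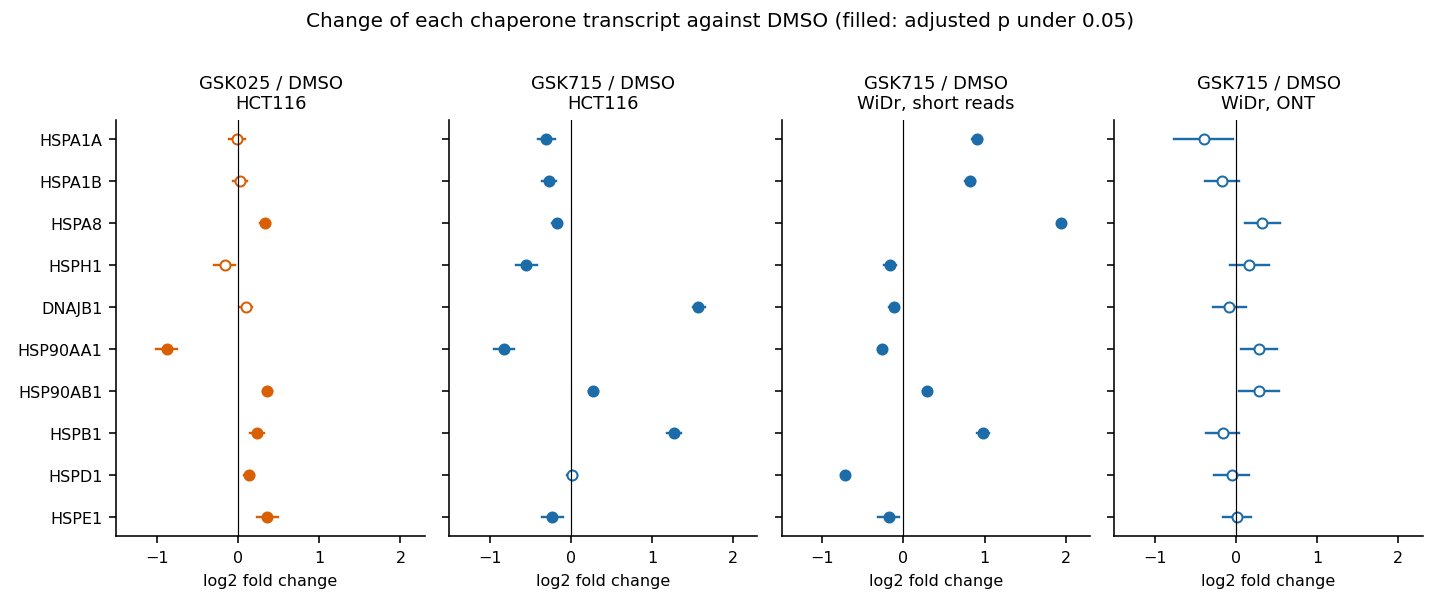
Log2 fold change of each chaperone transcript against DMSO, with bars of 1.96 standard errors to each side, for GSK025 and GSK715 in HCT116 and for GSK715 in WiDr short reads and ONT libraries. Filled points passed an adjusted p under 0.05, and the point farthest right is HSPA8 in WiDr short reads at 1.94.

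HSPA8 encodes the constitutive HSP70 (HSC70), which folds new proteins, uncoats clathrin vesicles and takes part in chaperone-mediated autophagy. In HCT116 HSPA8 had 982, 1009.6 and 1007.6 CPM with GSK025 and 715, 695 and 701 CPM with GSK715, against 793, 798 and 792 CPM with DMSO. The 3 groups did not overlap, with GSK025 highest and GSK715 lowest. In WiDr short reads it had 1631, 1619 and 1613 CPM with GSK715, against 423, 421 and 427 CPM with DMSO, and every treated library stood far above every control. HSPA8 therefore rose with GSK025 in HCT116 (log2 change 0.33, SE 0.0293, adjusted p = 1.15e-06), fell with GSK715 in HCT116 (-0.17, SE 0.0293, adjusted p = 0.000272) and rose 3.83-fold with GSK715 in WiDr (log2 change 1.94, SE 0.0199, adjusted p = 3.56e-12). Its WiDr change was larger in size than that of 87.9% of the genes tested there. Of the HSPA1A, HSPA1B and HSPA8 level per kb, HSPA8 made up 58.2% ± 0.192 with GSK715 and 39.8% ± 1.04 with DMSO in WiDr (SD, n = 3 each). From ONT counts of WiDr, not divided by length, its share was 42.5% ± 5.85 with GSK715 and 33.5% ± 0.371 with DMSO (SD, n = 2 each).

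HSPA1A and HSPA1B encode the stress-inducible HSP70, as near-identical neighbouring genes of the major histocompatibility region on chromosome 6 (31815464 to 31817946 and 31827735 to 31830255, plus strand, GRCh38). Of the 75-base windows of HSPA1A transcripts 69.3% also occur in HSPA1B, so reads may be split between them and each value is uncertain. HSPA1B also shares 36.5% of its exonic bases with the same-strand transcript ENSG00000285565, which held 0 counts in each HCT116 library, 195, 0 and 47 in WiDr with GSK715 and 0, 0 and 44 in WiDr with DMSO.

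HSPA1A had 74.3, 74.9 and 67.4 CPM with GSK025 and 58.5, 61.0 and 58.2 CPM with GSK715 in HCT116, against 71.2, 74.6 and 73.1 CPM with DMSO. HSPA1B had 145, 139 and 133 CPM with GSK025 and 110, 118 and 113 CPM with GSK715, against 133, 139 and 138 CPM with DMSO. For both genes the GSK025 libraries overlapped DMSO, and all 3 GSK715 libraries lay below. The changes with GSK025 were -0.02 for HSPA1A and 0.03 for HSPA1B (log2, adjusted p = 0.849 and 0.712, not called). With GSK715 HSPA1A fell by 0.30 (SE 0.0521, adjusted p = 0.000344) and HSPA1B fell by 0.27 (SE 0.0459, adjusted p = 3e-04) on the log2 scale.

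In WiDr short reads the inducible HSP70 genes were higher with GSK715. HSPA1A had 292, 287 and 288 CPM with GSK715, against 157, 158 and 147 CPM with DMSO. HSPA1B had 312, 310 and 317 CPM with GSK715, against 180, 180 and 170 CPM with DMSO. No treated library overlapped a control for either gene. HSPA1A rose 1.88-fold (log2 change 0.91, SE 0.0338, adjusted p = 6.52e-09) and HSPA1B rose 1.77-fold (log2 change 0.83, SE 0.032, adjusted p = 8.71e-09). Summed, so that reads split between them no longer matter, the pair averaged 211 CPM with GSK025, 173 CPM with GSK715 and 209.7 CPM with DMSO in HCT116. The sum averaged 602 CPM with GSK715 and 331 CPM with DMSO in WiDr. The log2 changes of the sum were 0.01 with GSK025 and -0.28 with GSK715 in HCT116 and 0.86 with GSK715 in WiDr, with the same calls as for each gene.

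DNAJB1 encodes the inducible J-domain protein HSP40, which delivers clients to HSP70 and stimulates its ATPase. It had 222, 232 and 231 CPM with GSK025 and 653, 623 and 631 CPM with GSK715 in HCT116, against 220.4, 213 and 207 CPM with DMSO. All 3 GSK715 libraries stood far above the other 6. In WiDr DNAJB1 had 120.3, 120.5 and 118 CPM with GSK715, against 131, 130.0 and 129 CPM with DMSO, with every treated library slightly below the controls. DNAJB1 rose 2.98-fold with GSK715 in HCT116 (log2 change 1.57, SE 0.0382, adjusted p = 2.05e-11), the largest change of the 10 genes in that line, and fell by 0.12 on the log2 scale in WiDr (SE 0.0279, adjusted p = 0.00388). Scaled by library totals instead, the WiDr value was 0.00624 (adjusted p = 0.858), so that call and its direction depend on the scaling. With GSK025 the change was 0.09 (SE 0.0375, adjusted p = 0.057), not called with edgeR and called with DESeq2 (0.105, adjusted p = 0.008), with RLE factors (0.105, adjusted p = 0.0305) and without the first DMSO library (0.12, adjusted p = 0.0479).

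HSPH1 encodes HSP110, a nucleotide exchange factor of HSP70 that also takes part in disaggregation. In HCT116 it had 34.4, 31.7 and 33.5 CPM with GSK025 and 24.6, 26.1 and 25.6 CPM with GSK715, against 39.7, 35.2 and 36.6 CPM with DMSO. GSK715 libraries were lowest, and neither treatment overlapped DMSO. In WiDr HSPH1 had 117, 115 and 123 CPM with GSK715, against 133, 127 and 137 CPM with DMSO, again without overlap. HSPH1 fell by 0.55 on the log2 scale with GSK715 in HCT116 (SE 0.0662, adjusted p = 1.57e-05) and by 0.16 in WiDr (SE 0.0389, adjusted p = 0.00392). The value with GSK025 was -0.16 (SE 0.0657, adjusted p = 0.0621, not called). With library totals HSPH1 was called with GSK025 (-0.23, adjusted p = 0.0137) and was not called in WiDr (-0.04, adjusted p = 0.414).

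HSP90AA1 encodes the inducible cytosolic HSP90 alpha, whose clients include kinases and steroid receptors. In HCT116 it had 936, 860.0 and 919.7 CPM with GSK025 and 823, 997 and 1010.0 CPM with GSK715, against 1707, 1611 and 1689.9 CPM with DMSO. Every library of either inhibitor lay far below every DMSO library. In WiDr HSP90AA1 had 497, 483 and 504 CPM with GSK715, against 585, 596 and 604 CPM with DMSO, also without overlap. HSP90AA1 fell by 0.88 on the log2 scale with GSK025 (SE 0.0655, adjusted p = 2.67e-07), by 0.82 with GSK715 in HCT116 (SE 0.0654, adjusted p = 3.56e-07) and by 0.27 in WiDr (SE 0.0259, adjusted p = 8.4e-06). With TMM scaling it was the only member called lower with GSK025.

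HSP90AB1, which encodes the constitutive HSP90 beta, moved the other way. In HCT116 it had 4362, 4342 and 4173 CPM with GSK025 and 4153, 4021 and 3981 CPM with GSK715, against 3358, 3332 and 3331 CPM with DMSO. In WiDr HSP90AB1 had 1602, 1591 and 1607 CPM with GSK715, against 1289, 1344 and 1299 CPM with DMSO. Treated and control libraries did not overlap in either line. HSP90AB1 rose by 0.36 on the log2 scale with GSK025 (SE 0.028, adjusted p = 3.69e-07), by 0.28 with GSK715 in HCT116 (SE 0.028, adjusted p = 2.87e-06) and by 0.29 in WiDr (SE 0.0208, adjusted p = 8.48e-07). Per kb, the ratio of HSP90AB1 to HSP90AA1 was 8.36 ± 0.47 with GSK025, 7.64 ± 1.08 with GSK715 and 3.53 ± 0.1 with DMSO in HCT116. It was 5.7 ± 0.0916 with GSK715 and 3.88 ± 0.0893 with DMSO in WiDr (SD, n = 3 each). ONT counts of WiDr, not divided by length, showed no such shift. There the ratio was 0.816 ± 0.0687 with GSK715 and 0.817 ± 0.0101 with DMSO (SD, n = 2 each).

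HSPB1 encodes HSP27, a small heat shock protein that holds unfolded proteins and binds actin filaments. In HCT116 HSPB1 had 171, 179 and 168 CPM with GSK025 and 375, 355 and 338 CPM with GSK715, against 143, 148 and 150.0 CPM with DMSO. The GSK715 libraries stood far above the rest, and GSK025 libraries lay between. In WiDr HSPB1 had 117, 119 and 114 CPM with GSK715, against 58.4, 61.6 and 57.7 CPM with DMSO, without overlap. HSPB1 rose with each inhibitor: by 0.23 on the log2 scale with GSK025 (SE 0.0449, adjusted p = 0.000924), 2.42-fold with GSK715 in HCT116 (log2 change 1.27, SE 0.0454, adjusted p = 4.72e-10) and 1.97-fold in WiDr (log2 change 0.98, SE 0.0362, adjusted p = 6.43e-09). HSPB1 and HSP90AB1 were the members called higher in all 3 short-read comparisons with DMSO.

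HSPD1 encodes HSP60, the barrel of the mitochondrial chaperonin. In HCT116 it had 946, 923 and 947 CPM with GSK025 and 833, 882 and 875 CPM with GSK715, against 849, 850.4 and 862 CPM with DMSO. GSK025 libraries lay above DMSO and GSK715 libraries overlapped it. In WiDr HSPD1 had 679.8, 678.8 and 694 CPM with GSK715, against 1116, 1119.5 and 1139.5 CPM with DMSO, and all 3 treated libraries were far below. HSPD1 rose by 0.14 on the log2 scale with GSK025 (SE 0.032, adjusted p = 0.00332), a call lost with library totals (0.07, adjusted p = 0.126). In WiDr it fell by 0.72 (SE 0.0212, adjusted p = 1.39e-09). With GSK715 in HCT116 the value was 0.02 (SE 0.032, adjusted p = 0.727, not called), and with library totals it was called lower (-0.14, adjusted p = 0.00385).

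HSPE1 encodes HSP10, the lid of the same chaperonin, and is transcribed from the opposite strand beside HSPD1 on chromosome 2, with 281 exonic bases shared between them. The strand of the libraries is not given in the sources used here, so reads in that stretch cannot be told apart. In HCT116 it had 109, 115 and 128 CPM with GSK025 and 72.0, 79.2 and 83.4 CPM with GSK715, against 93.0, 89.7 and 92.0 CPM with DMSO. In WiDr HSPE1 had 47.8, 43.5 and 40.1 CPM with GSK715, against 47.4, 52.3 and 49.5 CPM with DMSO. The HCT116 groups did not overlap, and the WiDr groups did. HSPE1 rose by 0.36 on the log2 scale with GSK025 (SE 0.0649, adjusted p = 0.000494) and fell by 0.23 with GSK715 (SE 0.0651, adjusted p = 0.0115). In WiDr it fell by 0.18 (SE 0.0667, adjusted p = 0.0342).

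Both HSPE1 calls with GSK715 were easily lost. The readthrough gene HSPE1-MOB4 shares 192 exonic bases with HSPE1 and held 54, 0 and 558 counts with GSK715 and 72, 0 and 0 with DMSO in HCT116. With these counts added to HSPE1, an alternative chosen after seeing the data, the HCT116 value was -0.17 (adjusted p = 0.0946), and without the first GSK715 library it was also -0.17 (adjusted p = 0.0565). In WiDr the adjusted p was 0.0628 to 0.122 when DMSO library 2 or 3 or GSK715 library 2 or 3 was left out, 0.439 with library totals (-0.06) and 0.0574 without a count filter (-0.19). The HSPD1 to HSPE1 ratio per kb was 3.74 ± 0.299 with GSK025, 5.15 ± 0.252 with GSK715 and 4.34 ± 0.0819 with DMSO in HCT116, and 7.32 ± 0.715 with GSK715 and 10.6 ± 0.515 with DMSO in WiDr (SD, n = 3 each). From ONT counts of WiDr, not divided by length, it was 0.298 ± 0.0351 with GSK715 and 0.31 ± 0.0233 with DMSO (SD, n = 2 each).

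GSK715 (5 µM) and GSK025 (10 µM) were also set against each other in HCT116, at doses that differ. Of the 10 members, 7 were lower and 2 higher with GSK715 than with GSK025, where 22.5% of genes were lower and 21.8% higher, 44.3% in all. The 2 that were higher were DNAJB1 (log2 difference 1.48, SE 0.0381, adjusted p = 2.36e-11) and HSPB1 (1.04, SE 0.0451, adjusted p = 2.06e-09). The differences of the 7 that were lower ran from -0.59 for HSPE1 and -0.51 for HSPA8 to -0.12 for HSPD1 and -0.08 for HSP90AB1. The HSP90AB1 call was lost when the DMSO libraries were left out of the fit (adjusted p = 0.108), without a count filter (adjusted p = 0.0605) and without GSK715 library 2 or 3 or GSK025 library 1 or 2 (adjusted p = 0.0929 to 0.122). HSP90AA1, low with both inhibitors, was not called (0.06, 95% interval -0.07 to 0.19, adjusted p = 0.504), and without the first GSK715 library it was called higher (0.15, adjusted p = 0.0115).

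The response to GSK715 was compared between the lines as an interaction in 1 fit over both short-read tables, which scales all its libraries together, so its values need not equal the difference of the separate values above. Of the 10 members, 5 had a more positive response in WiDr than in HCT116, 3 a more negative one and 2 were not called, where 23.2% of 21791 genes were more positive and 23.5% more negative, 46.7% in all. HSPA8 differed most, its fold change in WiDr being 4.11 times that in HCT116 (log2 difference 2.04, SE 0.0281, adjusted p = 2.82e-14). HSPA1A (1.14, adjusted p = 7.49e-10) and HSPA1B (1.02, adjusted p = 2.07e-09) rose in WiDr and fell in HCT116. HSP90AA1 (0.49, adjusted p = 0.000348) and HSPH1 (0.31, adjusted p = 0.00272) fell in both lines, and less in WiDr.

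DNAJB1 had the most negative difference (-1.76, SE 0.0417, adjusted p = 2.54e-12), HSPD1 was next (-0.80, SE 0.0359, adjusted p = 8.98e-10) and HSPB1, which rose in both lines, last (-0.37, SE 0.0568, adjusted p = 0.00012). HSP90AB1 (-0.06, 95% interval -0.11 to -0.01, adjusted p = 0.0896) and HSPE1 (-0.03, 95% interval -0.21 to 0.16, adjusted p = 0.893) were not called. The median response of all genes moved by 0.34 when library totals were used in place of TMM, and on that scaling HSPB1 was not called (-0.01) while HSP90AB1 (0.30) and HSPE1 (0.33) were called as more positive in WiDr. The lines were separate tables, so line and any difference between the tables cannot be told apart.

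**Figure D4:**
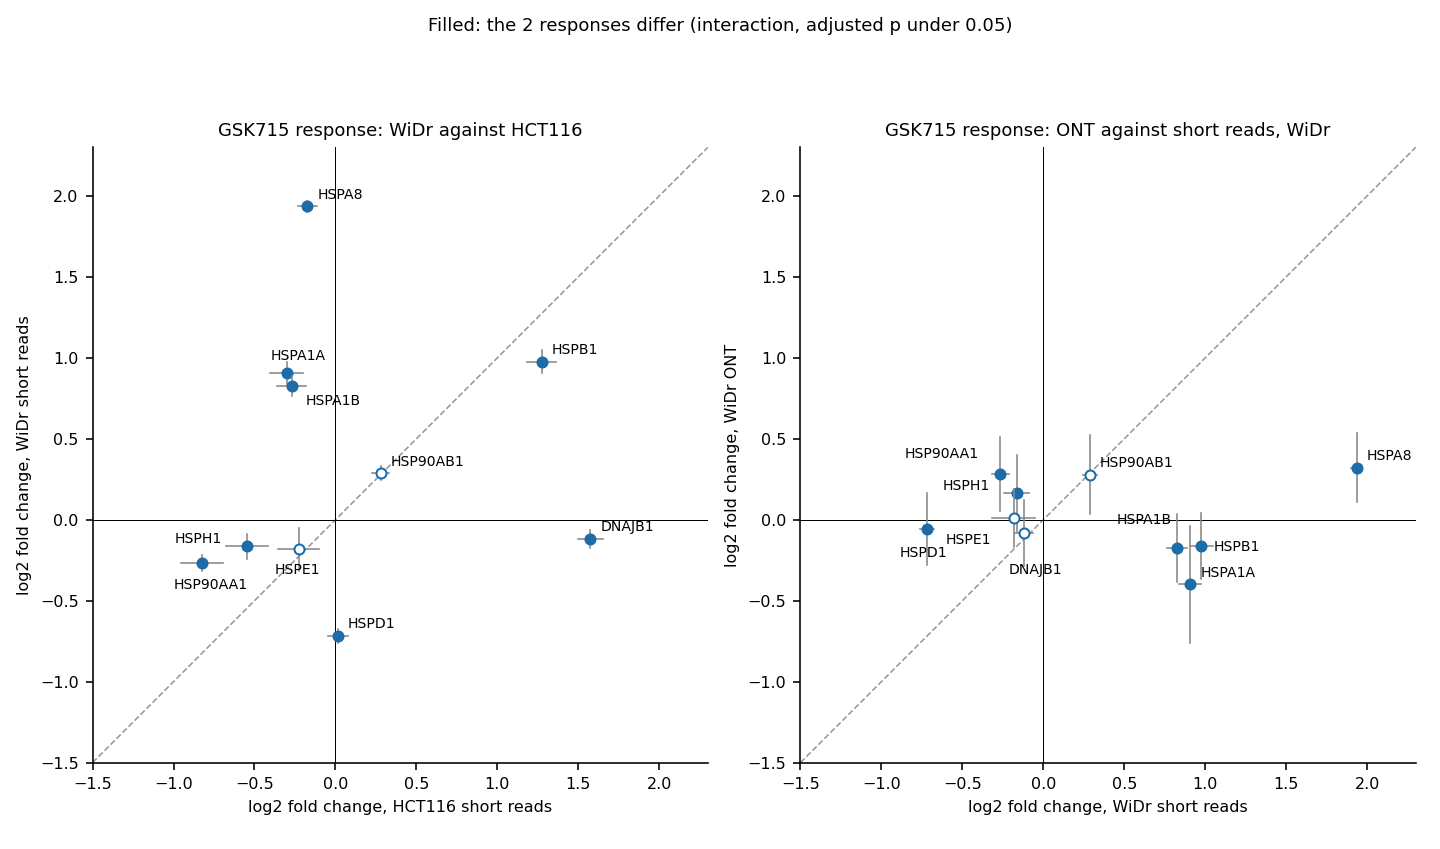
Log2 change with GSK715 against DMSO for each chaperone, with WiDr short reads against HCT116 short reads on the left and WiDr ONT against WiDr short reads on the right, bars of 1.96 standard errors and a dashed line where both responses are equal. Filled points differed between the 2 axes at an adjusted p under 0.05, and HSPA8 lies at -0.17 in HCT116 and 1.94 in WiDr on the left and at 1.94 in short reads and 0.32 in ONT on the right.

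The ONT libraries of WiDr measured the same 10 genes with 2 libraries a group. HSPA8 had 180.5 and 197 CPM with GSK715, against 146 and 156 CPM with DMSO, and the groups did not overlap. HSP90AA1 had 159 and 158 CPM with GSK715, against 140.3 and 119 CPM with DMSO. HSP90AB1 had 137 and 121 CPM with GSK715, against 116 and 96.7 CPM with DMSO. These genes and HSPH1 (119.9 and 139.5 CPM with GSK715, against 119 and 112 CPM with DMSO) were higher in both treated libraries than in both controls, as were 24.6% of all genes tested, with 25.5% lower in both and 50.1% without overlap in either direction. For HSPH1 the gap was small. Their values were 0.32 for HSPA8 (95% interval 0.11 to 0.54, adjusted p = 0.0548), 0.28 for HSP90AA1 (adjusted p = 0.125), 0.28 for HSP90AB1 (adjusted p = 0.171) and 0.16 for HSPH1 (adjusted p = 0.479), none called. Without the first GSK715 library HSPA8 was called higher (0.38, adjusted p = 0.0407) and HSPB1 lower (-0.34, adjusted p = 0.042).

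The ONT groups of the remaining 6 members overlapped. HSPA1A had 50.5 and 36.1 CPM with GSK715, against 49.8 and 65.1 CPM with DMSO, and HSPA1B had 240 and 189 CPM with GSK715, against 236 and 248 CPM with DMSO. DNAJB1 had 194 and 208 CPM with GSK715, against 202 and 224 CPM with DMSO. HSPB1, which was higher with GSK715 in short reads, had 296 and 235 CPM with GSK715, against 282 and 314 CPM with DMSO. In each of these 4 genes a treated library lay below both controls and the other lay between them. The share of all genes with this pattern was not counted. HSPD1 had 149.5 and 163 CPM with GSK715, against 174 and 149 CPM with DMSO. HSPE1 had 547 and 504 CPM with GSK715, against 533 and 509 CPM with DMSO, a treated library above and another below both controls. HSPE1 was the highest of the 10 in ONT counts, which are not divided by length, and HSP90AB1 was 9th by mean in both groups.

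The methods were compared in 1 fit with 1 spread per gene, which can understate the spread of the ONT libraries. For HSPA9, the mitochondrial HSP70, the SE was 0.0644 in that fit and 0.103 in ONT alone. Between the methods, 4 members had a lower GSK715 response in ONT than in short reads of WiDr, 3 a higher one and 3 were not called, where 8.69% of 24055 genes were lower and 11.2% higher, 19.9% in all. The lower ones were HSPA8 (-1.56, SE 0.0755, adjusted p = 1.06e-07), HSPA1A (-1.26, SE 0.171, adjusted p = 0.000201), HSPB1 (-1.09, SE 0.119, adjusted p = 3.47e-05) and HSPA1B (-0.95, SE 0.107, adjusted p = 4.81e-05). The higher ones were HSPD1 (0.71, SE 0.0855, adjusted p = 7.61e-05), HSP90AA1 (0.60, SE 0.0878, adjusted p = 0.000341) and HSPH1 (0.38, SE 0.105, adjusted p = 0.0221), the last lost with library totals (0.17, adjusted p = 0.375) and when either ONT DMSO library, ONT GSK715 library 2 or short-read DMSO library 1 or 3 was left out (adjusted p = 0.0514 to 0.234). HSP90AB1 (0.04, adjusted p = 0.928), DNAJB1 (0.08, adjusted p = 0.579) and HSPE1 (0.25, adjusted p = 0.149) were not called, and HSPE1 was without short-read GSK715 library 1 (0.32, adjusted p = 0.039). Of 2561 genes called at 2-fold or more in short reads and measured in both, 74.5% had the same sign in ONT. Their median ONT change was 0.27 in the short-read direction, against 1.44 in short reads. These genes were picked by their short-read change, and of the members only HSPA8 reached it. They are therefore no matched background for the members. Across the 11602 genes measured by both methods, which are not independent replicates, the changes had a Pearson r of 0.422. Method, library preparation and culture cannot be told apart here.

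The partners of these chaperones were described through lists of related genes. A gene named below for 1 comparison may also have changed in others. Of 14 HSP90 cochaperones, 9 were higher and 3 lower with GSK025, 5 higher and 6 lower with GSK715 in HCT116, and 3 higher and 8 lower with GSK715 in WiDr. The medians were 0.21, -0.07 and -0.22 on the log2 scale, against -0.02, -0.05 and 0.05 over all genes. The shares of all genes tested in these comparisons were 22%, 22.1% and 33.6% higher and 22.1%, 24.2% and 32.2% lower. With GSK025 UNC45A, a chaperone of myosin and HSP90 partner, rose by 0.64 (adjusted p = 4.03e-08), and STIP1, which links HSP70 to HSP90, rose by 0.54 (adjusted p = 5.89e-08). RPAP3, of the R2TP complex, fell by 1.11 (adjusted p = 5.94e-07). It averaged 19.5 CPM with GSK025, 22.2 CPM with GSK715 and 42 CPM with DMSO in HCT116, and 37.6 CPM with GSK715 and 56.7 CPM with DMSO in WiDr. With GSK715 in HCT116 the kinase cochaperone CDC37 rose by 0.44 (adjusted p = 7.11e-07), and FKBP5, a steroid receptor cochaperone, fell by 0.64 (adjusted p = 1.64e-07). In WiDr FKBP5 fell by 1.23 (adjusted p = 2.08e-08), and PTGES3, the p23 protein that stabilises client-bound HSP90, fell by 0.67 (adjusted p = 1.31e-08).

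Of 19 HSP70 partners, 10 were higher and 6 lower with GSK025, 8 higher and 6 lower with GSK715 in HCT116, and 6 higher and 10 lower in WiDr. Over all genes tested 44.1%, 46.4% and 65.8% were called in either direction, and the medians of the list were 0.255, 0.05 and -0.21 on the log2 scale. BAG3, an exchange factor of the stress response, averaged 151 CPM with GSK025, 116 CPM with GSK715 and 101 CPM with DMSO in HCT116, and 55.3 CPM with GSK715 and 63.8 CPM with DMSO in WiDr. It rose with both inhibitors in HCT116 (0.58, adjusted p = 1.02e-06, and 0.20, adjusted p = 0.00553) and fell by 0.21 in WiDr (adjusted p = 0.00662). HSPA4L, an HSP110 relative of HSPH1, fell by 1.08 with GSK025 (adjusted p = 3.58e-07) and fell by 2.18 in WiDr (adjusted p = 2.55e-10). With GSK715 in HCT116 it averaged 38 CPM, against 55.4 CPM with DMSO. BAG2, an inhibitor of the ubiquitin ligase CHIP, fell by 0.79 with GSK715 in HCT116 (adjusted p = 1.82e-06) and by 1.99 in WiDr (adjusted p = 3.61e-09).

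The CCT chaperonin folds actin and tubulin, which prefoldin delivers to it. Of its 14 listed genes, 11 were higher and 2 lower with GSK025, 8 higher and 3 lower with GSK715 in HCT116, and 0 higher and 12 lower in WiDr, where 22%, 22.1% and 33.6% of all genes tested were higher and 22.1%, 24.2% and 32.2% lower. The medians were 0.22, 0.16 and -0.59 on the log2 scale. The prefoldin subunit PFDN2 rose by 0.81 with GSK715 in HCT116 (adjusted p = 2.65e-08) and fell by 1.76 in WiDr (adjusted p = 3.94e-09). CCT2 fell by 0.32 in HCT116 with GSK715 (adjusted p = 2.61e-05) and by 1.25 in WiDr (adjusted p = 1.39e-10), while CCT7 rose by 0.64 with GSK025 (adjusted p = 6.4e-08).

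Of 15 mitochondrial chaperones and proteases, which work beside HSPD1 and HSPE1, 7 were higher and 3 lower with GSK025, 6 higher and 2 lower with GSK715 in HCT116, and 2 higher and 12 lower in WiDr, with medians of 0.02, 0.01 and -0.86. Of all genes tested 22%, 22.1% and 33.6% were higher and 22.1%, 24.2% and 32.2% lower. HSPA9, the mitochondrial HSP70, averaged 508 CPM with GSK025, 519 CPM with GSK715 and 431 CPM with DMSO in HCT116, and 458 CPM with GSK715 and 1090 CPM with DMSO in WiDr. It rose by 0.24 with GSK025 (adjusted p = 6.78e-05) and by 0.27 with GSK715 in HCT116 (adjusted p = 2.11e-05), and fell by 1.25 in WiDr (adjusted p = 5.33e-11). Its J-domain partner DNAJA3 fell by 1.31 in WiDr (adjusted p = 3.94e-10), while the proteases SPG7 and HTRA2 rose by 0.81 and 0.93 there (adjusted p = 1.46e-08 and 1.33e-05). With GSK025 the matrix protease LONP1 rose by 0.56 (adjusted p = 1.55e-06).

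**Figure D5:**
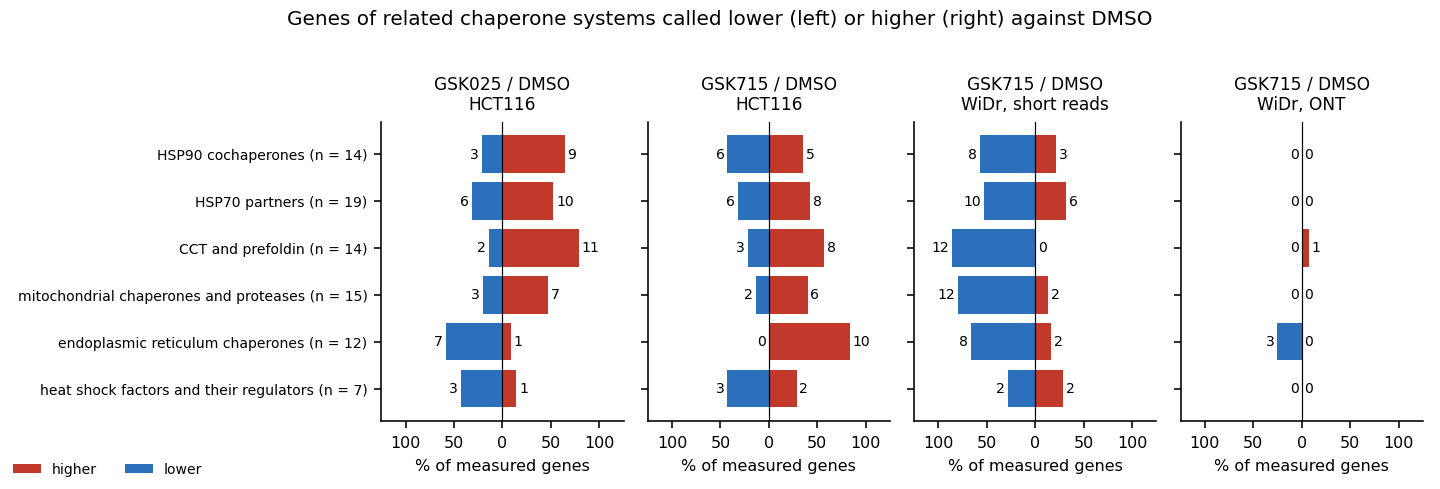
Share of the measured genes of 6 related lists called lower (left of 0) or higher (right of 0) against DMSO at an adjusted p under 0.05, with the numbers of genes printed beside the bars. The CCT and prefoldin list has 11 higher genes with GSK025, 8 with GSK715 in HCT116, and 12 lower genes with GSK715 in WiDr.

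HSF1, the main heat shock transcription factor, averaged 116 CPM with GSK025, 93 CPM with GSK715 and 79.7 CPM with DMSO in HCT116, and 94.7 CPM with GSK715 and 154 CPM with DMSO in WiDr. Its transcript rose by 0.55 with GSK025 (adjusted p = 2.88e-06) and by 0.22 with GSK715 in HCT116 (adjusted p = 0.00395), and fell by 0.70 in WiDr (adjusted p = 2.74e-08). Of the 7 heat shock factors and regulators, 1 was higher and 3 lower with GSK025, 2 higher and 3 lower with GSK715 in HCT116, and 2 higher and 2 lower in WiDr. Over all genes tested the shares called were 44.1%, 46.4% and 65.8%, and the medians of these 7 were 0.12, 0.20 and -0.03. SIRT1, a deacetylase of HSF1, fell with each: by 0.66 (adjusted p = 0.000132), by 0.67 (adjusted p = 0.000123) and by 0.77 (adjusted p = 9.97e-07). HSF4 fell by 0.90 with GSK025 (adjusted p = 0.0182) and rose by 1.17 in WiDr (adjusted p = 1.65e-05). Its level in HCT116 was low, at 1.54 CPM with GSK025 and 2.89 CPM with DMSO. In WiDr it averaged 19.6 CPM with GSK715 and 8.7 CPM with DMSO.

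HSPA6, a strictly inducible HSP70, had 0 to 8 counts in each HCT116 library and was not tested there. In WiDr short reads it averaged 0.512 CPM with GSK715 and 0.216 CPM with DMSO (not called, adjusted p = 0.0742), and in ONT 5.72 CPM with GSK715 and 15.1 CPM with DMSO (-1.36, adjusted p = 0.0245). These values rest on few reads and point in opposite directions. Short-read libraries held 18 to 50 counts with GSK715 and 8 to 25 with DMSO. ONT libraries, 2 a group, held 8 to 8.887 estimated counts with GSK715 and 20 to 26 with DMSO. Of the other cytosolic HSP70 and small heat shock genes, 2 of the 6 measured were higher and 1 lower with GSK025, 1 higher and 3 lower with GSK715 in HCT116, and 2 of 8 higher and 2 lower in WiDr, beside 44.1%, 46.4% and 65.8% of all genes called. HSPA2, an HSP70 best known from the testis, fell by 1.23 with GSK715 in HCT116 (adjusted p = 9.12e-05) and rose by 2.34 in WiDr (adjusted p = 4.13e-05). Its levels were low: 2.64 CPM with GSK715 and 6.18 CPM with DMSO in HCT116. In WiDr they were 2.91 CPM with GSK715 and 0.566 CPM with DMSO, and every ONT library held 0 counts of it.

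The chaperones of the endoplasmic reticulum, under separate control by the unfolded protein response, were set beside the cytosolic ones. Of 12, 1 was higher and 7 lower with GSK025, 10 higher and 0 lower with GSK715 in HCT116, and 2 higher and 8 lower in WiDr, beside 22%, 22.1% and 33.6% of all genes higher and 22.1%, 24.2% and 32.2% lower. HSPA5 (BiP), their HSP70, fell by 0.66 with GSK025 (adjusted p = 3.5e-09), rose by 1.77 with GSK715 in HCT116 (adjusted p = 9.56e-13) and fell by 0.98 in WiDr (adjusted p = 1.02e-10). All 12 were higher with GSK715 than with GSK025 in HCT116, where 21.8% of all genes were, with a median log2 difference of 0.77. In ONT, where 4.51% of all genes were called lower, 3 of the 12 were called lower, HSPA5 (-0.55, adjusted p = 0.0119) and DNAJB11 (-0.42, adjusted p = 0.0376) among them. Of the other lists only HSPA6 and the chaperonin subunit CCT4 (0.31, adjusted p = 0.0346) were called in ONT.

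The genes most like HSPA8, HSP90AA1 and HSPD1 were sought by Pearson r of log2 level over the 15 short-read libraries, centred on the mean of each line, among 9675 genes with at least 5 CPM on average in each line. For HSPA8 they were RAB40B (r 0.997), ICAM1 (0.993) and FRMD5 (0.993), with log2 changes of 2.59, 3.53 and 1.56 with GSK715 in WiDr. For HSP90AA1 they were SKIC3 (0.996), BDP1 (0.995) and DENND4A (0.993), which had log2 changes of -1.48, -2.25 and -2.31 with GSK025 and -1.40, -2.11 and -2.14 with GSK715 in HCT116. For HSPD1 they were FAM120A (0.992), MCFD2 (0.992) and NTN4 (0.991), with log2 changes of -0.81, -0.93 and -2.65 with GSK715 in WiDr. The libraries of a group share their treatment, so these values describe likeness of pattern over 5 groups and not 15 independent points.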

How the data were processed

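Per the labels' protocols, poly(A)-enriched short-read libraries were sequenced as pairs on a NovaSeq and ONT full-length cDNA on a PromethION. Short-read files as deposited by the authors are raw gene counts. Deposited ONT values are estimated counts, 15.1% of them not whole, and were rounded for fitting. The submitters' processing notes name cutadapt, HISAT2, StringTie, DESeq2, minimap2, Salmon and GRCh38; their versions and roles, the annotation release and the strand setting are not given in the sources used here. Columns named NC in both WiDr tables were read as DMSO, the only control there. A table of ONT read statistics was not used here.

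Symbols, coordinates and exon lengths came from GENCODE 29. Per table, genes passed filterByExpr (minimum count 10, minimum total 15) and were fitted with TMM factors and edgeR's quasi-likelihood test (edgeR 4.0.16, limma 3.58.1, R 4.3.3), with Benjamini-Hochberg adjustment over all genes tested. HCT116 was fitted with all 3 groups together. The lines, and the methods, were compared by the interaction of compound with line or method in 1 fit of both tables over the 60259 and 61975 shared IDs. SE is the log2 change divided by the square root of F, and intervals are 1.96 SE to each side. That multiplier belongs to a normal distribution, so with few libraries the intervals are narrower than a true 95%. They are not adjusted for the number of genes, so an interval can leave out no change where the gene was not called. Pairs of libraries of a group were compared by a chi-square per gene, which averages 1 for sampling noise alone. It was 9.82 to 24.6 in short reads, and 1.59 and 1.37 in ONT, much closer to sampling noise. Figures used Python 3.11.15 and matplotlib 3.10.9. The scripts were tested on simulated data.

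Alternatives were RLE factors, library totals, no count filter, DESeq2 1.42.0, glmTreat against a 1.5-fold change, HSPA1A with HSPA1B summed, pseudogenes added, HSPE1-MOB4 added, only the groups compared, a replicate block and each library left out. The rule for named genes took the 10 members, HSF1, HSPA6, HSPA9, BAG3, at most 2 genes per list and direction by lowest adjusted p (not all printed), and the 3 genes most alike in pattern. Members and lists were chosen with earlier results of these data known.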

Additional observations from a re-analysis of the deposited data

Results flagged for a closer look

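The response to GSK715 differed between WiDr and HCT116 for 8 of the 10 chaperones, by the interaction of compound and line in edgeR's quasi-likelihood test, as it did for 46.7% of the 21791 genes tested. The log2 differences, WiDr minus HCT116, were 2.04 for HSPA8, 1.14 for HSPA1A, 1.02 for HSPA1B, 0.49 for HSP90AA1, 0.31 for HSPH1, -0.37 for HSPB1, -0.80 for HSPD1 and -1.76 for DNAJB1. With library totals HSPB1 was not called (-0.01), and HSP90AB1 (0.30) and HSPE1 (0.33) were. For HSPA8, HSPA1A and HSPA1B all 3 treated WiDr libraries lay above every DMSO library of that line and all 3 treated HCT116 libraries below theirs, and for DNAJB1 the reverse held with TMM scaling. The WiDr side of the DNAJB1 split depends on that scaling, since its change there was 0.00624 with library totals (adjusted p = 0.858). The share of all genes with such a split was not counted, so it is a description of these genes only.

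In WiDr the response differed between ONT and short reads for 7 of the 10, by the interaction of compound and method, as it did for 19.9% of the 24055 genes tested. The log2 differences, ONT minus short reads, were 0.71 for HSPD1, 0.60 for HSP90AA1, 0.38 for HSPH1, -0.95 for HSPA1B, -1.09 for HSPB1, -1.26 for HSPA1A and -1.56 for HSPA8. The HSPH1 call was lost with library totals (0.17, adjusted p = 0.375) and when any of 5 libraries was left out (adjusted p = 0.0514 to 0.234). The ONT libraries held 2 samples a group, and whether the same cultures were used was not tested. The fit had 1 spread per gene for both methods, so these calls may understate the spread of the ONT libraries.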

How the results depend on the processing

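Apart from leaving out libraries, 614 of 660 values of single members kept their side of the threshold and, where called, their direction. Some of these settings could change few members. Adding HSPE1-MOB4 altered the counts of HSPE1 only, and summing HSPA1A with HSPA1B altered only those genes, with the sum counted for both. Pseudogenes added few reads to a member. The number kept therefore overstates how far the calls were tried. DNAJB1 in WiDr turned with library totals (0.00624, adjusted p = 0.858). With library totals, 2 members were lower with GSK025 (HSPH1 added) and 2 lower in WiDr. Against a 1.5-fold change, the counts were 0 higher with GSK025, 1 lower with GSK715 in HCT116, 0 lower for GSK715 against GSK025, 1 lower in WiDr, 3 higher for WiDr minus HCT116 and 0 higher for ONT minus short reads. Leaving out 1 library gave 5 to 6 higher and 1 lower with GSK025, 3 higher and 5 to 6 lower with GSK715 in HCT116, 2 to 3 higher and 6 to 7 lower for GSK715 against GSK025, 5 higher and 4 to 5 lower in WiDr, 0 to 1 in each direction in ONT, 5 higher and 3 lower between lines, and 2 to 4 higher and 4 lower between methods. Where 1 library remained in an ONT arm, it was assumed to vary like the other group. Library totals changed the share of called genes that were higher to 32.1% from 47.7% for GSK715 in HCT116, to 39.1% from 49.2% for GSK715 against GSK025, to 37.4% from 48.7% in ONT, to 69.6% from 49.7% between lines and to 36.9% from 56.3% between methods; the median change of all genes moved by -0.16 for GSK715 in HCT116, 0.12 in WiDr, 0.34 between lines and -0.20 between methods. In ONT, 1397 genes were called, against 251 without a count filter and 277 with DESeq2. A replicate block used the number in the column name, within each table. With the block, HSPA8 was called higher in ONT (0.32, adjusted p = 0.0321), so that 1 member was higher there and 1706 genes were called, and no other member's call changed. Same-numbered libraries had correlations in their deviations of -0.158 to 0.0228 in HCT116, -0.0569 to 0.181 in WiDr and 0.00134 in ONT, which do not meet the rule for pairing (over 0.1 in each pair), and the labels name no shared source. The ONT libraries held 1449698 to 1667813 counts, with 2 libraries a group, and the intervals of HSPA1A and HSPA1B there were -0.76 to -0.04 and -0.38 to 0.04; the part of depth was not tested. Pseudogenes held at most 2.43% of a member's reads in short reads. The cause of the other changes was not tested.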
